A study of Mus musculus with 18 samples.

Results

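The 10 genes described here handle the calcium of the endoplasmic reticulum (ER): the pump gene Atp2a2, the release channel genes Itpr1, Itpr2 and Itpr3, the store-operated entry genes Stim1 and Orai1, and the calcium-binding protein genes Nucb2, Rcn1, Rcn3 and Calu. They were chosen by gene name, and each was found in all 18 files, among 20207 genes. Transcript levels were measured by mRNA-seq of poly(A) RNA from NIH3T3 cells, an established line of mouse fibroblasts, which stably expressed DD-sfGFP. This is superfolder green fluorescent protein (GFP) fused to a destabilizing domain (DD) that unfolds unless the ligand S1 is present. The line was sorted for high GFP, and S1 was kept in the medium of every group used here. There were 6 groups of 3 replicates: unstressed cells at 0 min (the reference), cells after 45 and 135 min of heat stress (HS), and cells after 45, 135 and 405 min of tunicamycin (Tu), which blocks N-linked glycosylation in the ER. No unstressed group had a later time, so comparisons with the reference or between times cannot separate stress from time since 0 min. The labels number the replicates but do not say whether they were separate cultures. The p-values thus measure the spread between these samples, which may be technical.

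The ER is the main calcium store of most cells. The SERCA pump, whose housekeeping form is encoded by Atp2a2, carries calcium from the cytosol into the ER, and the inositol trisphosphate (IP3) receptors encoded by Itpr1, Itpr2 and Itpr3 let it out again. When the store empties, the ER membrane protein STIM1 senses the loss and opens the ORAI1 channel in the plasma membrane. Nucb2 encodes nucleobindin 2, a calcium-binding protein of the Golgi and secretory pathway, and Rcn1, Rcn3 and Calu encode reticulocalbin 1, reticulocalbin 3 and calumenin, luminal calcium-binding proteins of the CREC family. ER chaperones need calcium, and stress in the ER is met by the ER unfolded protein response (erUPR). HS is met by the heat shock response (HSR).

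The samples held 33415592 to 66478268 reads on genes. Counts scaled to the library total are given as CPM, on which scale 3 reads were worth 0.0451 to 0.0898. This floor covers counting error only. All 10 members passed the filter of at least 1 read in every sample, with a lowest count of 301 reads. The marker levels matched the label: the 8 fibroblast markers ranged from 10.2 to 4096 RPKM (reads scaled to gene length and library total), and 12 of 13 markers of leukocytes, epithelium, endothelium, muscle and adipocytes reached at most 0.111 RPKM. The exception was Cd68, a lysosomal protein gene, at 3.72 to 7.61 RPKM. Among stress markers, Hspa5, the ER chaperone BiP, had 9010 ± 252 CPM at Tu 405 min against 692 ± 40.4 CPM in the reference (SD, n = 3), and Hsph1, a cytosolic heat shock protein gene, had 2028 ± 742 CPM at HS 135 min against 202 ± 38.8 CPM (SD, n = 3). Hspa5 was not high in every Tu group and not in Tu groups alone. It had 415 ± 79.1 CPM at Tu 135 min (log2 fold change -0.72, adjusted p = 0.135, edgeR) and was called higher at HS 135 min, with 1341 ± 73.8 CPM (log2 fold change 0.96, adjusted p = 0.0312, edgeR). The call of Hspa5 at HS 135 min was lost in 4 of the 6 fits that left out a single sample (adjusted p up to 0.176, edgeR).

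Some libraries stood apart from others of their group along the GC content of transcripts. Tested genes with a mean of at least 50 reads and a known GC content were used. For each library, the deviation of each such gene from its median over the 18 samples was correlated with the gene's GC content (by Spearman's rho, over genes and not over replicates). This GC tilt was 0.63 and 0.59 in HS 45 min replicates 1 and 2 but -0.37 in replicate 3. It was -0.34, 0.60 and 0.27 in HS 135 min replicates 1, 2 and 3, and 0.62, -0.21 and -0.21 in Tu 135 min replicates 1, 2 and 3. Reference replicate 1 had 0.20 against -0.51 in both of the others, and Tu 45 min replicate 3 had 0.24 against -0.61 and -0.44. The Tu 405 min libraries lay close together, between -0.13 and 0.055. The study's methods name 2 ways of making libraries, without saying which samples had which, so their part in this spread and in differences between groups was not tested. The members differ in GC content, from 45.0% for Calu and 45.7% for Nucb2 to 59.9% for Rcn3.

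In the reference, levels compared per length placed Rcn3 and Calu first, with 145.2 ± 8.2 and 145.0 ± 29.4 RPKM (SD, n = 3), and the ranges of these genes overlapped. Atp2a2 followed with 60.4 ± 3.08 RPKM, and Rcn1 and Itpr3, whose ranges overlapped, had 35.5 ± 12.6 and 31.7 ± 5.79 RPKM. Orai1, Stim1 and Nucb2 could not be ordered beyond their spread, at 7.63 ± 0.845, 7.24 ± 0.732 and 6.97 ± 2.69 RPKM. Itpr1 had 3.88 ± 0.235 RPKM, and its range (3.64 to 4.11 RPKM) overlapped the lower end of that of Nucb2 (3.9 to 8.86 RPKM), while Itpr2 was the lowest member with 2.42 ± 0.299 RPKM. Among the 12731 genes tested, the members lay between the 31.9th percentile (Itpr2) and the 96.7th percentile (Rcn3) of reference level.

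The largest changes came at 405 min of tunicamycin. There the pump gene Atp2a2 and the nucleobindin gene Nucb2 were induced, and Rcn3 was induced to a smaller extent. The IP3 receptor genes Itpr3 and Itpr1 were repressed. Orai1 was called higher, a call lost in 5 of the 6 fits that left out a single sample. Itpr2, Stim1, Rcn1 and Calu did not pass the test. Thus 4 members were called higher and 2 lower, where 23.3% of all genes tested were called higher and 23.5% lower. The median log2 fold change of the members was 0.31, against -0.012 for all genes. At this time 7 of the 10 members did not overlap the reference in any sample, where 58.7% of all genes tested did not.

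**Figure D1:**
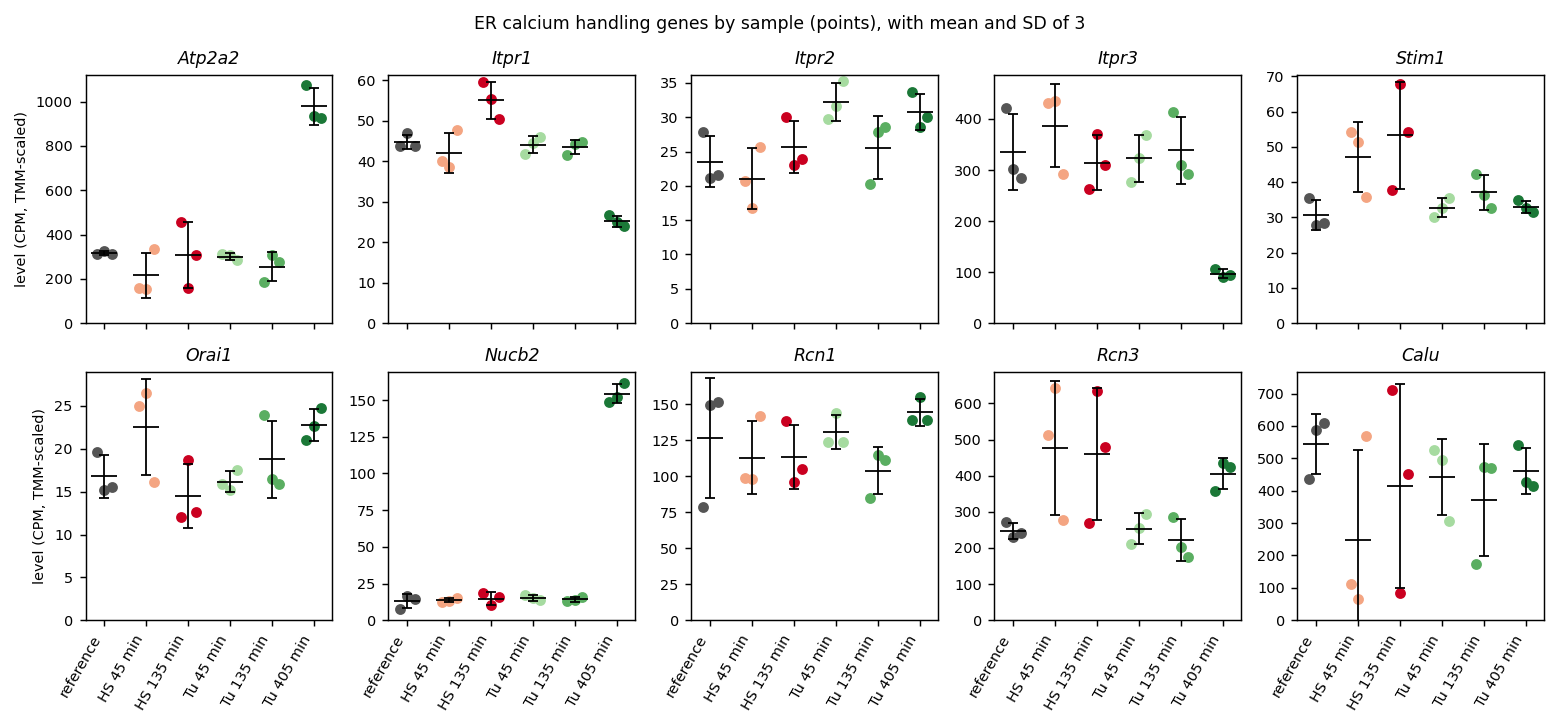
Level of each member in every sample, in CPM scaled by TMM over the 18 samples (linear axes from 0), for the reference and the 5 stressed groups. Points are samples, the long bar is the mean and the whiskers the SD of 3. The Tu 405 min samples of Atp2a2 (926 to 1074 CPM) and Nucb2 (149 to 162 CPM) lie above all other samples, those of Itpr1 (23.9 to 26.6 CPM) and Itpr3 (89.8 to 106 CPM) lie below all others, and Calu spreads most within the HS groups.

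Atp2a2 (chromosome 5 of mm9, 122906342 to 122952234, minus strand) encodes SERCA2, the pump that refills the store. Its level was 312, 327 and 313 CPM in reference replicates 1 to 3, and 1074, 937 and 926 CPM in those of Tu 405 min. All 3 treated samples lay far above the reference, with no overlap. The log2 fold change was 1.65 (standard error, SE, 0.127), with an adjusted p = 5.37e-05 (quasi-likelihood test of edgeR, Benjamini-Hochberg), or 3.13-fold. Leaving out any single sample gave 1.55 to 1.68, called each time.

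Nucb2 (chromosome 7, 123647888 to 123683592, plus strand) changed most among the members. It had 7.56, 16.3 and 14.8 CPM in the reference and 149, 152 and 162 CPM at Tu 405 min. Reference replicate 1 stood below the other reference samples, and every treated sample lay above every reference sample. The log2 fold change was 3.61 (SE 0.273, adjusted p = 5.01e-05, edgeR), or 12.2-fold, and lay between 3.34 and 3.79 when single samples were left out. Per length, Nucb2 went from the 8th rank of the members in the reference, at 6.97 RPKM, to 79.2 ± 2.56 RPKM (SD, n = 3).

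Itpr3 (chromosome 17, 27194249 to 27259168, plus strand), the most abundant IP3 receptor gene of these cells, fell from 421, 301 and 285 CPM in the reference to 106, 89.8 and 95.2 CPM at Tu 405 min. The groups did not overlap, although reference replicate 1 was well above the others. The log2 fold change was -1.77 (SE 0.179, adjusted p = 0.000176, edgeR), or 3.41-fold lower. Itpr1 (chromosome 6, 108163090 to 108501104, plus strand) had 43.8, 46.9 and 43.8 CPM in the reference and 26.6, 24.9 and 23.9 CPM at Tu 405 min. These groups were also apart, and the spread within each was small. Its log2 fold change was -0.81 (SE 0.115, adjusted p = 0.000864, edgeR), or 1.76-fold lower. Both receptor genes were called lower in every fit that left out a single sample.

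Itpr2 (chromosome 6, 146060002 to 146450434, minus strand) differed in direction from the other IP3 receptor genes. It had 27.8, 21.2 and 21.6 CPM in the reference and 33.7, 28.6 and 30.1 CPM at Tu 405 min, so the groups did not overlap. With a log2 fold change of 0.41 (SE 0.153, adjusted p = 0.0561, edgeR) it did not pass the test. Without reference replicate 1 the log2 fold change was 0.55 (adjusted p = 0.00141, edgeR), and with an offset for GC content it was 0.43 (adjusted p = 0.0394, edgeR). It was not called with total counts (0.32, adjusted p = 0.109, edgeR), in the fit shared by all 6 groups (0.39, adjusted p = 0.133, edgeR) or by limma on RPKM (0.32, adjusted p = 0.135).

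The receptor genes therefore made up a different mixture at Tu 405 min. In RPKM, which allows for their lengths, the 3 genes summed to 38.0 ± 5.88 in the reference and to 13.9 ± 1.5 at Tu 405 min (SD, n = 3). Itpr3 made up 83.2% ± 2.17 of this sum in the reference and 63.2% ± 0.652 at Tu 405 min. The share of Itpr2 was 6.39% ± 0.262 in the reference and 21.8% ± 0.0887 at Tu 405 min, and that of Itpr1 was 10.4% ± 1.98 and 14.9% ± 0.719. The RPKM of Atp2a2 divided by the receptor sum was 1.62 ± 0.30 in the reference and 12.8 ± 0.350 at Tu 405 min. Each of these quantities was apart in the 2 groups, and an exact two-sided permutation test gave p = 0.1 for the sum, the Itpr3 share and the ratio, the smallest that 3 against 3 allow. In the groups other than Tu 405 min the ratio ranged from 0.665 to 2.61. The receptor sum was also apart from the reference at HS 135 min. It was 31.4 to 33.4 RPKM there against 34.0 to 44.8 RPKM in the reference, with p = 0.1 by the same permutation test. RPKM was not scaled by TMM, and in RPKM the median log2 fold change of all genes tested was -0.18 at HS 135 min (limma). In the TMM-scaled fit of that comparison Itpr1 was at 0.30, Itpr2 at 0.13 and Itpr3 at -0.096 on the log2 scale, none of them called (edgeR). The lower sum is thus not given as a fall of the receptor genes.

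**Figure D2:**
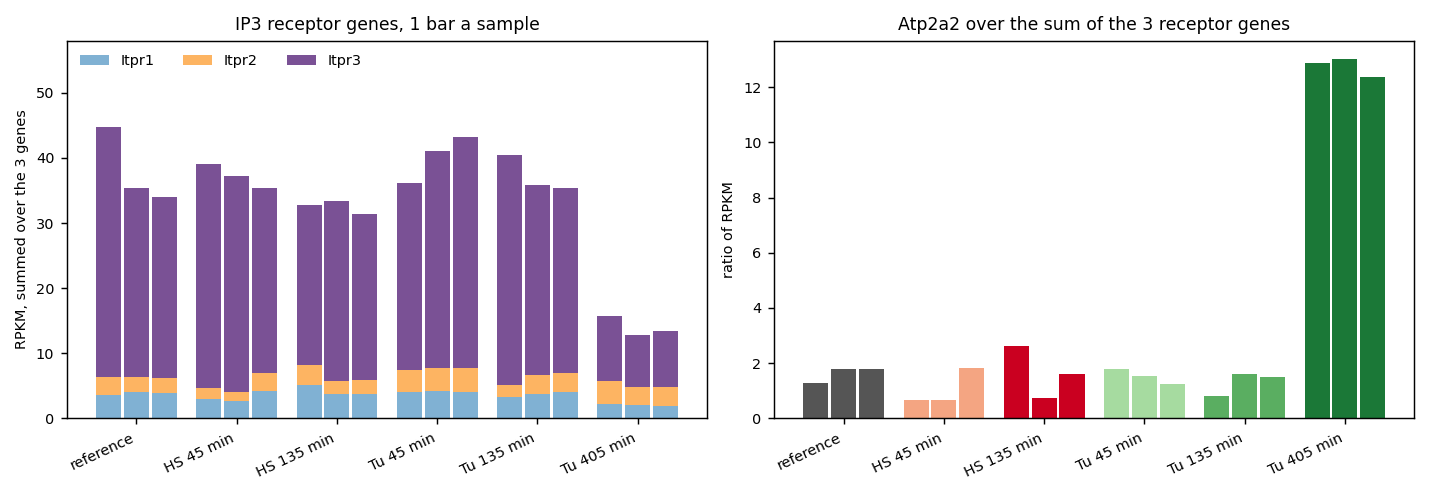
Left, RPKM of Itpr1, Itpr2 and Itpr3 stacked in each sample, in 6 groups of 3 bars. Right, RPKM of Atp2a2 divided by the summed RPKM of the 3 receptor genes in the same samples. The Tu 405 min bars sum to 12.8 to 15.6 RPKM against 34.0 to 44.8 in the reference, and the ratio there is 12.4 to 13.0.

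The store-operated entry genes moved little at 405 min. Orai1 (chromosome 5, 123465083 to 123480461, plus strand), the channel of the plasma membrane, had 19.6, 15.2 and 15.5 CPM in the reference and 21.0, 22.7 and 24.7 CPM at Tu 405 min. The ranges were apart by a small margin, and the log2 fold change was 0.46 (SE 0.154, adjusted p = 0.0373, edgeR). The call was lost when any sample other than reference replicate 1 was left out (0.38 to 0.50 on the log2 scale, adjusted p up to 0.147, edgeR), and with the replicate number as a block (log2 fold change 0.47, adjusted p = 0.0795, edgeR). Stim1 (chromosome 7, 109416338 to 109585369, plus strand), the calcium sensor, had 35.5, 27.9 and 28.5 CPM in the reference and 34.8, 32.6 and 31.6 CPM at Tu 405 min. These overlapped, with a log2 fold change of 0.13 (SE 0.140, adjusted p = 0.476, edgeR). Without reference replicate 1, Stim1 was called higher at 0.26 (adjusted p = 0.0380, edgeR).

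Among the CREC family genes, Rcn3 (chromosome 7, 52338284 to 52347583, minus strand) was induced, with 272, 230 and 241 CPM in the reference and 357, 436 and 423 CPM at Tu 405 min. All treated samples were above all reference samples. The log2 fold change was 0.73 (SE 0.139, adjusted p = 0.00338, edgeR). It was called in every fit that left out a single sample but not in the fit shared by all 6 groups, where it was 0.71 (adjusted p = 0.0906, edgeR). Rcn1 (chromosome 2, 105226105 to 105239476, minus strand) had 78.4, 150 and 151 CPM in the reference and 139, 155 and 139 CPM at Tu 405 min. Reference replicate 1 was the lowest of the 18 samples, so the groups overlapped, and the log2 fold change was 0.22 (SE 0.233, adjusted p = 0.477, edgeR). Without that library it was -0.032, and so it changed sign. Calu (chromosome 6, 29298119 to 29326675, plus strand) had 437, 586 and 608 CPM in the reference and 542, 425 and 414 CPM at Tu 405 min. The log2 fold change was -0.22 (SE 0.171, adjusted p = 0.326, edgeR), and -0.35 without reference replicate 1 (adjusted p = 0.0338, edgeR). The CREC genes thus did not move as a group at this time.

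**Figure D3:**
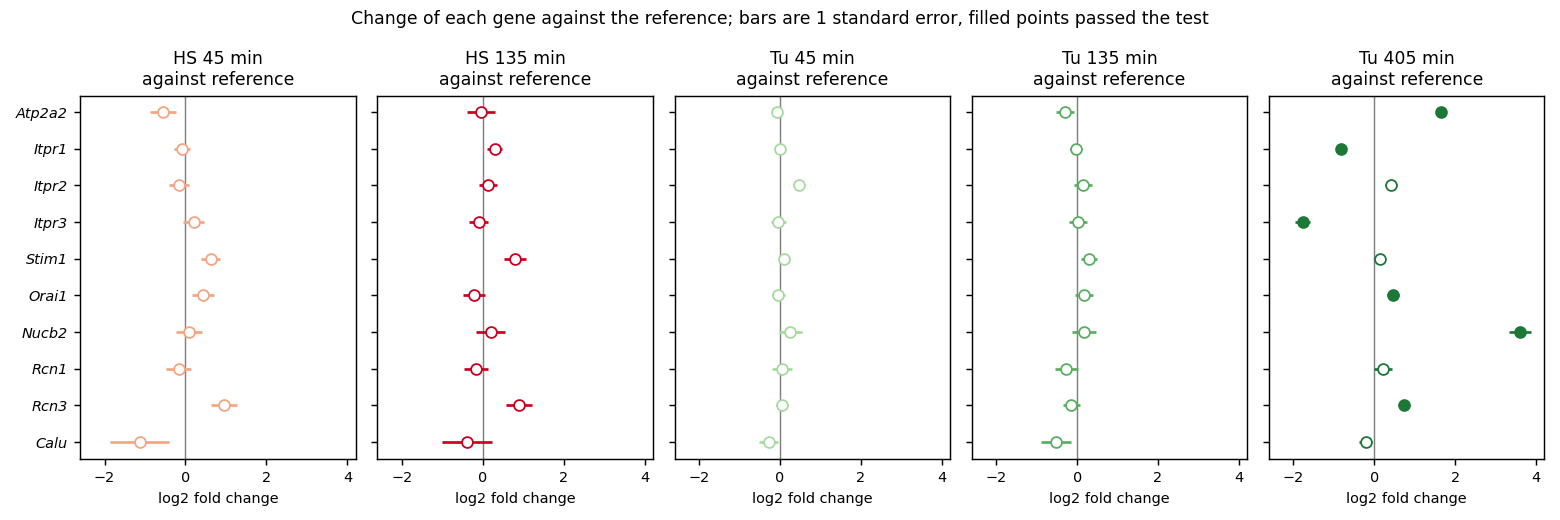
Log2 fold change of each member against the reference in the 5 comparisons, which share the reference samples; whiskers are 1 standard error, and filled points passed the test (adjusted p under 0.05, edgeR). Filled points appear at Tu 405 min, where Nucb2 is at 3.61 and Itpr3 at -1.77, and in no other panel.

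Promoters of 4 called members are shown because Hspa5, the marker of this response, holds an ER stress response element (ERSE; CCAAT, then 9 bases, then CCACG) in its own promoter, at -65 to -47 from the start of the gene. Promoters were taken from RefSeq (GRCm38.p6), as the 250 bases before the start, and 7 of the 10 members were matched: Itpr2, Itpr3, Stim1, Orai1, Nucb2, Rcn3 and Calu. Atp2a2 and Itpr1, also called, and Rcn1 were not matched. The sequences run 5′ to 3′ along the strand of the gene, and capitals mark CCAAT or its reverse complement ATTGG.
Nucb2, chr7:116504119-116504368, plus strand: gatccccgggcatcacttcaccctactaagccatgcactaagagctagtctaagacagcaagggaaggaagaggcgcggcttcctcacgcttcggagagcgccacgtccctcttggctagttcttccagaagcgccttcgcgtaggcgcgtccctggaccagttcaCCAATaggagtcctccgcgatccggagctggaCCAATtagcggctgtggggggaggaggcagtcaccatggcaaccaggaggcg
Rcn3, chr7:45092214-45092463, minus strand: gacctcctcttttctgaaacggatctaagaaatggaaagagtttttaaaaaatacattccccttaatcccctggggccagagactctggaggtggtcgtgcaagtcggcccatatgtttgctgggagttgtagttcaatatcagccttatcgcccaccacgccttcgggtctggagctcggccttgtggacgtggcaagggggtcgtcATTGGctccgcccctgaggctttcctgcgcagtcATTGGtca
Orai1, chr5:123014824-123015073, plus strand: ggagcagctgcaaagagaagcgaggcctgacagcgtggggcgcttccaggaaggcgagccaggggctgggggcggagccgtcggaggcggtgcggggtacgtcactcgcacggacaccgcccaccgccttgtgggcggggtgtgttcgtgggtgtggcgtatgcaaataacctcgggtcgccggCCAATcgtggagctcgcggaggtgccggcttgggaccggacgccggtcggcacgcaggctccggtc
Itpr3, chr17:27057054-27057303, plus strand: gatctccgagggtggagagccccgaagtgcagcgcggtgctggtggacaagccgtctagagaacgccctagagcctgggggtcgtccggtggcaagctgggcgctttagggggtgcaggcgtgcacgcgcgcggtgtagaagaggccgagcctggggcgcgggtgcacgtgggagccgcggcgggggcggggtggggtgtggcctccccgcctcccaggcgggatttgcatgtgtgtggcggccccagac
Nucb2 held 2 CCAAT boxes, at -84 to -80 and at -52 to -48. Rcn3 held 2 on the other strand, at -42 to -38 and at -8 to -4, and Orai1 held 1, at -66 to -62, while none was found in this window of Itpr3. Of the members not called at 405 min, Calu held 3, Itpr2 held 2 and Stim1 held none. CCAAT was found on either strand in 33.8% of the 32851 promoters of the table. The second part of the ERSE, CCACG, was present, not at the spacing of the ERSE, in Itpr2, Itpr3, Orai1, Nucb2, Rcn3 and Calu, and in 28.3% of all promoters. No window of the 7 members held a complete ERSE, found in 0.113% of all promoters. None held the core of the unfolded protein response element (TGACGTGG, 0.563%), the C/EBP-ATF composite element (TGNTGCAAT, 0.581%) or a heat shock element of 3 alternating GAA and TTC units (0.466%). These matches are a description of letters in this window and do not show binding.

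The earlier tunicamycin samples showed no called member. At 45 min, 0 of the 10 members passed the test, where 6.17% of all genes tested did. At 135 min 0 of 10 passed, where 0.134% did. These shares also rested on single libraries. At 45 min 786 genes were called, 2499 without reference replicate 1 and 58 without Tu 45 min replicate 2. At 135 min 17 were called, 61 without Tu 135 min replicate 1 and 0 without replicate 2 or 3 of either group. The stress marker Ddit3, a transcription factor of the integrated stress response, had 542 ± 138 CPM at Tu 45 min against 71.9 ± 2.29 in the reference (SD, n = 3). At Tu 135 min it had 208 ± 69.2 CPM and was not called (log2 fold change 1.54, adjusted p = 0.0706, edgeR). Ddit3 was also called higher at HS 135 min, with 360 ± 135 CPM (log2 fold change 2.32, adjusted p = 0.0122, edgeR). Nucb2 remained near its reference level, with 17.1, 15.0 and 13.5 CPM at 45 min and 12.9, 13.8 and 16.1 CPM at 135 min. Itpr2 had the smallest p of the members at 45 min, with 29.8, 31.6 and 35.3 CPM, all above the reference samples. Its log2 fold change was 0.47 (SE 0.154, adjusted p = 0.110, edgeR), and without reference replicate 1 it was 0.60 and called (adjusted p = 0.0175, edgeR). Atp2a2 had 312, 306 and 283 CPM at 45 min and 184, 307 and 275 CPM at 135 min, with log2 fold changes of -0.065 and -0.29, neither called. Replicate 1 of Tu 135 min was low for Atp2a2 and for Calu, which had 172 CPM there against 472 and 469 CPM in the other samples.

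The change between the last tunicamycin times was tested directly, since a call at one time and not at another does not show a difference. Between Tu 135 min and Tu 405 min, 4 members were called higher, where 21.4% of all genes tested were, and 2 were called lower, where 22.4% were. Nucb2 rose by 3.41 on the log2 scale (SE 0.146, adjusted p = 2.61e-05, edgeR) and Atp2a2 by 1.92 (SE 0.209, adjusted p = 0.000416, edgeR). Rcn3 rose by 0.85 (SE 0.202, adjusted p = 0.0117, edgeR). Rcn1 rose by 0.45 (SE 0.151, adjusted p = 0.0426, edgeR), from 85.1, 115 and 111 CPM to 139, 155 and 139 CPM. Itpr3 had a log2 fold change of -1.82 (SE 0.171, adjusted p = 0.000217, edgeR), and Itpr1 one of -0.81 (SE 0.124, adjusted p = 0.00177, edgeR). The call of Rcn1 was lost in 5 of the 6 fits that left out a single sample, all but the fit without Tu 135 min replicate 1 (0.33 to 0.53 on the log2 scale over the 6 fits, adjusted p up to 0.157, edgeR). Orai1, which was not called here, was called higher without Tu 135 min replicate 1 (log2 fold change 0.47, adjusted p = 0.00559, edgeR).

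Under HS, 0 of the 10 members passed the test at 135 min, where 7.39% of all genes tested did. That share rested on single libraries, with 941 genes called in all, 15 without reference replicate 2, 11 without reference replicate 3 or without HS 135 min replicate 3, and 2464 without HS 135 min replicate 1. In all, 2 members, Stim1 and Itpr1, lay wholly above the reference samples, where 37.2% of all genes did not overlap in either direction. Stim1 had 37.7, 67.9 and 54.3 CPM, with a log2 fold change of 0.80 (SE 0.264, adjusted p = 0.0962, edgeR). Itpr1 had 59.4, 55.4 and 50.3 CPM, with a log2 fold change of 0.30 (SE 0.186, adjusted p = 0.312, edgeR). Rcn3 had 269, 633 and 479 CPM, with a log2 fold change of 0.89 (SE 0.312, adjusted p = 0.108, edgeR), and its lowest sample overlapped the reference. The high samples of Stim1 and Rcn3 were replicates 2 and 3, those with a positive GC tilt. Without HS 135 min replicate 1, Stim1 (1.0, adjusted p = 0.0279, edgeR) and Rcn3 (1.17, adjusted p = 0.0170, edgeR) were called higher. With an offset for GC content, Stim1 was called higher at 0.55 (adjusted p = 0.0337, edgeR), Orai1 was called lower at -0.60 (adjusted p = 0.0449, edgeR) and Rcn3 was at 0.40 (adjusted p = 0.0914, edgeR). The part of the GC tilt in these values was not tested beyond this offset.

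At HS 45 min, 0 of the 10 members passed the test, and 0% of all genes tested did. At an unadjusted p under 0.05 (edgeR) there were 2481 of the 12731 genes tested and 2 of the 10 members (Rcn3 and Stim1), a similar share. The DESeq2 Wald test called 386 genes higher and 66 lower, while the fit shared by all 6 groups called 925 higher and 421 lower. Calu showed the widest spread, with 112, 64.3 and 568 CPM, so that the highest HS 45 min sample had 8.84 times the level of the lowest. Atp2a2 was likewise low in replicates 1 and 2, with 158, 156 and 333 CPM. Rcn3 was high in those samples, with 512, 643 and 277 CPM. The log2 fold changes were -1.13 for Calu (SE 0.735, adjusted p = 0.352, edgeR), -0.56 for Atp2a2 (SE 0.325, adjusted p = 0.317, edgeR) and 0.95 for Rcn3 (SE 0.319, adjusted p = 0.232, edgeR). Without HS 45 min replicate 3, whose GC tilt differed from the others, Rcn3 (1.22), Stim1 (0.79) and Orai1 (0.62) were called higher and Calu (-2.62) and Atp2a2 (-1.02) lower, with adjusted p-values between 0.00153 and 0.0380 (edgeR). In the same fit 2735 of the 12731 genes were called higher and 3050 lower, so these calls of members stand among calls of many genes. With the GC offset no member was called at 45 min, and the log2 fold change of Rcn3 was 0.25. HS 135 min and Tu 135 min were also compared directly, and 0 of 10 members passed, where 2.12% of all genes tested did. In this comparison the largest difference among the members was that of Rcn3, higher by 1.03 on the log2 scale under HS (SE 0.345, adjusted p = 0.161, edgeR). The share of all genes was 270 genes, and 0 with the replicate block or without HS 135 min replicate 3. It was 1461 genes with the GC offset and 1771 in the shared fit.

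**Figure D4:**
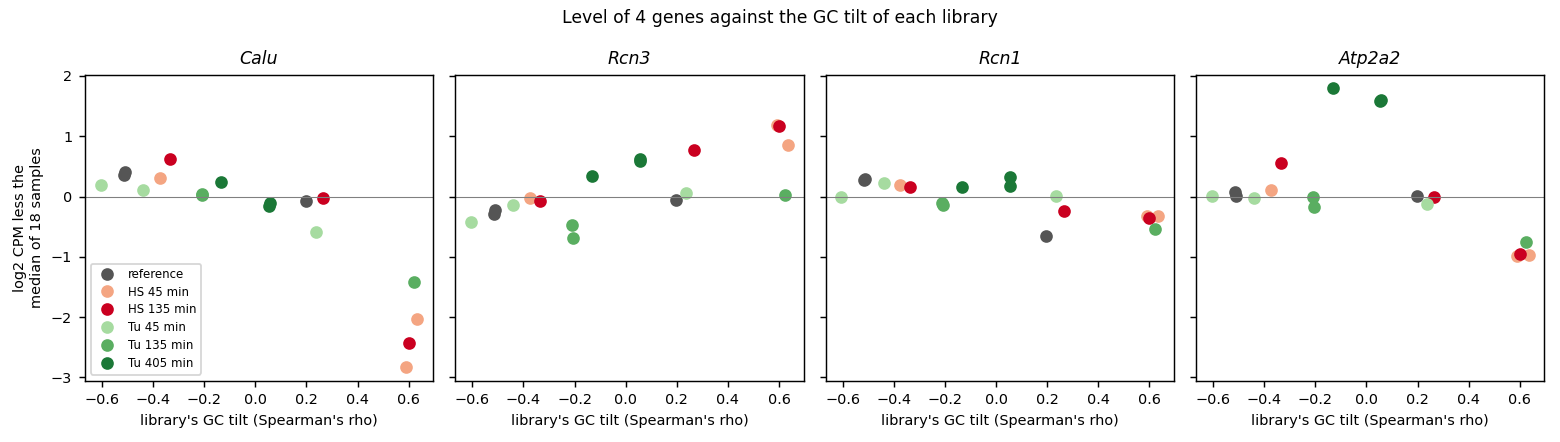
Level of Calu, Rcn3, Rcn1 and Atp2a2 in each of the 18 libraries (log2 CPM less the median of the 18) against the GC tilt of the library (Spearman's rho between transcript GC content and the deviation of tested genes with at least 50 reads on average). Colours are the groups. The 4 libraries with a tilt of 0.59 or more hold the 4 lowest levels of Calu and of Atp2a2, whereas the Tu 405 min libraries stand above all others for Atp2a2 at a tilt of -0.13 to 0.055.

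Across the 18 samples, deviations from the group means moved together for several members. Pearson's r of these deviations, given as a description over samples that share libraries and GC tilt, was 0.97 between Atp2a2 and Calu, -0.93 between Rcn3 and Calu and -0.92 between Atp2a2 and Rcn3. The group means of Nucb2 spanned the widest range of the members, 3.55 on the log2 CPM scale. The genes whose log2 CPM was most like that of Nucb2 over the 18 samples were Sec11c (Pearson's r = 0.99), a signal peptidase subunit, Dlg2 (0.98), Gch1 (0.98), the first enzyme of tetrahydrobiopterin synthesis, Ica1 (0.98) and Mycl1 (0.97). Each was highest at Tu 405 min, Sec11c with 21.0 CPM on average against 3.85 CPM in the reference. Dlg2, Gch1, Ica1 and Mycl1 were low in the reference, at 0.389, 0.326, 0.525 and 0.755 CPM, and had 6.26, 7.22, 2.47 and 7.62 CPM at Tu 405 min. Outside Tu 405 min the group means of Nucb2 were 12.9 to 15.2 CPM, so these values of r mostly describe the rise at that time.

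Wider lists of calcium handling genes held 86 further genes, of which 76 were tested. Their counts at Tu 405 min stand beside 23.3% of all genes called higher and 23.5% called lower, and differences between lists were not tested. At Tu 405 min, the list of ER release and store-operated entry had 8 genes called higher and 4 lower of 20 tested, with a median log2 fold change of 0.32. Atp2a3, which encodes another SERCA pump, had the largest change, with 13.8 against 0.387 CPM on average and a log2 fold change of 5.19 (SE 0.214, adjusted p = 4.64e-06, edgeR). Per length, Atp2a3 reached 2.50 ± 0.0382 RPKM, against 178 ± 20.4 RPKM for Atp2a2 at the same time (SD, n = 3). Wfs1, the wolframin gene of the ER membrane, rose by 2.29 on the log2 scale (SE 0.206, adjusted p = 0.000106, edgeR). Tmem66, also named Saraf, an inhibitor of store-operated entry, rose by 2.08 (SE 0.122, adjusted p = 1.77e-05, edgeR), and Erp44, a luminal thioredoxin-like protein that binds the IP3 receptor, rose by 2.0 (SE 0.328, adjusted p = 0.0017, edgeR). Stim2, a relative of Stim1, was among the 4 that fell, with a log2 fold change of -0.71 (SE 0.151, adjusted p = 0.00578, edgeR), and it is named here after its value was seen.

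The list of luminal calcium-binding proteins had 6 genes called higher and 0 lower of 13 tested at Tu 405 min, with a median of 0.52. Hspa5 rose by 3.73 and Pdia4, a disulfide isomerase, by 3.64 on the log2 scale. Hsp90b1 (GRP94) rose by 2.90, and Calr, the high-capacity calcium buffer calreticulin, rose by 2.29. Many of these proteins are also ER chaperones. Adjusted p-values of these 4 genes lay between 4.64e-06 and 0.000639 (edgeR). Nucb1, the paralog of Nucb2, was called at HS 135 min, with 646 against 274 CPM on average and a log2 fold change of 1.24 (SE 0.265, adjusted p = 0.0347, edgeR), where Nucb2 had 18.2, 10.1 and 15.9 CPM. The call of Nucb1 was lost in 4 of the 6 fits that left out a single sample (adjusted p up to 0.156, edgeR).

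Outside the ER, of 14 tested genes of Golgi and plasma membrane calcium transport, 1 was called higher and 2 lower at Tu 405 min, with Cacna1g, a voltage-gated channel gene, at -3.06 and Atp2c1, the calcium and manganese pump of the Golgi, at -1.14 on the log2 scale. Of 12 mitochondrial genes, 2 were called higher and 2 lower, among them Slc24a6 (Slc8b1), the mitochondrial sodium-calcium exchanger, at -1.03. Of 17 tested genes of calmodulin, calcineurin and NFAT, 3 were called higher and 9 lower, with a median log2 fold change of -0.57. Nfatc3 and Nfatc4, transcription factors that calcineurin activates, had log2 fold changes of -1.08 and -1.03, and Ppp3cc, a catalytic subunit of calcineurin, had 1.45. At HS 135 min the 5 lists together held 5 genes called higher and 2 lower of 76 tested, where 7.39% of all genes were called, at Tu 45 min 2 higher and 1 lower, where 6.17% were, and at HS 45 min and Tu 135 min none of the 76. In the latter 2 comparisons few genes of any kind were called.

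**Figure D5:**
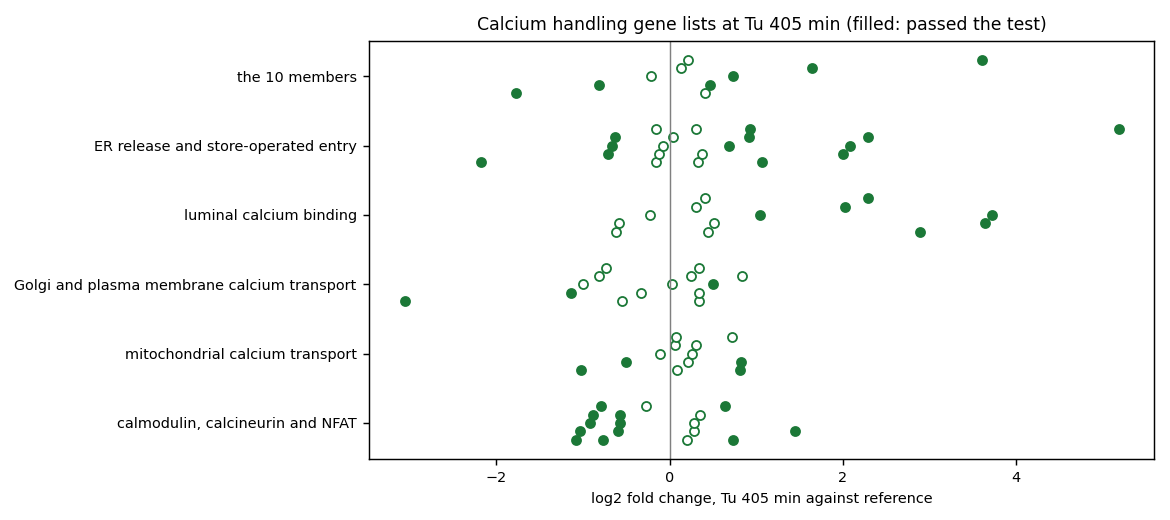
Log2 fold change at Tu 405 min against the reference for the 10 members and for the tested genes of the 5 wider lists, 1 point a gene, filled where the test was passed (vertical spread within a row has no meaning). The luminal calcium-binding list has 6 filled points, all to the right of 0, and the list of calmodulin, calcineurin and NFAT has 9 filled points to the left and 3 to the right.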

How the data were processed

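Poly(A) RNA was sequenced by the authors (Illumina HiSeq), with mm9 as the genome (named in the submitters' processing notes too), RefSeq as the gene set and DNAnexus as the software platform. The study's methods name a modified Illumina protocol and a NuGEN kit for the libraries, without assigning samples to either. Versions of the aligner and counter are not given in the sources used here. The deposited value for each gene and sample is a raw estimated count, written to 4 digits. Of the values up to 1000 reads, 15.5% to 20.4% had a fractional part. An RPKM was deposited with it, used here for levels between genes, as were 2 values that were not used, a score (Z-score) and a signal (RPKM divided by its root mean square). Values were joined by gene name. The coordinates of 741 genes differ between files, and Atp2a2 is listed at 2 positions.

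Estimated counts were rounded and tested with edgeR 4.0.16 (R 4.3.3), with TMM within each comparison, the quasi-likelihood test and Benjamini-Hochberg adjustment over 12731 genes, those with 1 read or more in all 18 samples. A call is an adjusted p under 0.05, after the study's methods. The fits were also run on simulated counts with known changes and no GC tilt. That run does not show how the fits behave with the tilt of these libraries. Printed CPM values were scaled by TMM over all 18 samples, and folds come from the fits. For correlations, spans and deviations in log2 CPM, 1 was added to the CPM first. Standard errors were computed from the fold change and its F statistic. The 7 comparisons were 5 with the reference and 2 direct ones. The alternatives were the Wald test of DESeq2 1.42.0, RLE scaling in edgeR in place of TMM, total counts, no filter, filterByExpr and 1 shared fit. A replicate block, an offset for GC content (lowess, span 0.3), limma 3.58.1 on log2(RPKM + 0.1), and leaving out single samples were also used. GC content was found for 97.7% of the genes tested. Replicates of a group correlated at 0.934 to 0.998 (log2 CPM, across genes), and no pair looked like the same library.

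Same-numbered samples deviated together in every pair of Tu 135 min and the reference alone (correlations of 0.299 to 0.342). Replicates 2 and 3 of these groups also correlated across numbers (0.27 and 0.24), so the correlations do not show that the numbers mark pairs. The labels do not give pairs. The values reported for this comparison come from the fit without a block. No member was called in that comparison with or without the block.

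All 10 members are named. Genes of the wider lists are named where called with at least 50 reads on average in the higher group, at most 4 per list and comparison by size of change, and 5 genes were named for likeness to the member of widest range. Hspa5, Ddit3, Hsph1 and Hspa1b were the stress markers. Of the 86 list genes 85 were matched, 10 by an older symbol. The members and lists were chosen with earlier results of these data known. Other steps used Python 3.11.15, pandas 2.3.3 and numpy 2.4.6.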

Additional observations from a re-analysis of the deposited data

Results flagged for a closer look

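For 6 members the level differed between Tu 135 min and Tu 405 min, by the direct test of these groups (edgeR). With no unstressed group at either time, tunicamycin and time cannot be told apart here. The log2 fold changes were 3.41 for Nucb2, 1.92 for Atp2a2, 0.85 for Rcn3 and 0.45 for Rcn1, all higher at 405 min in 3 of 3 samples, and -1.82 for Itpr3 and -0.81 for Itpr1, lower in 3 of 3 samples. Rcn1 was called here but not against the reference, where its log2 fold change was 0.22. Its call here was lost in 5 of the 6 fits that left out a single sample.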

How the results depend on the processing

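The calls of Atp2a2, Nucb2, Itpr1 and Itpr3 at Tu 405 min, against the reference and against Tu 135 min, were kept under every alternative run. The values below that turned in sign were called neither in the fit reported nor in the fit where they turned. In the fit shared by all 6 groups, members called higher were 2 at HS 135 min (0 in the fit of that comparison alone), 2 at Tu 405 min (4 alone) and 1 for HS 135 min against Tu 135 min (0 alone). With the GC offset there were 1 higher and 1 lower at HS 135 min and 1 higher for HS 135 min against Tu 135 min, and with total counts 1 was higher at Tu 45 min. The call of Rcn1 for Tu 405 min against Tu 135 min was lost in the shared fit (adjusted p = 0.128), with total counts (0.133), with the block (0.0802) and by limma (0.0711), and that of Orai1 at Tu 405 min in the shared fit (0.149), with total counts (0.0605) and with the block (0.0795). The GC offset called Itpr2 at Tu 405 min (0.0394) and Orai1 for Tu 405 min against Tu 135 min (0.0143), and the DESeq2 Wald test called Itpr2 at Tu 405 min (0.0466). The replicate block gave 3 members called higher and 2 lower at Tu 405 min against the reference, and 3 and 2 against Tu 135 min. Outside Tu 135 min and the reference, at least 1 same-numbered pair of each comparison correlated below 0.1 (means of -0.42 to 0.17 over the pairs), so the block rests on a number alone there. Over all genes at HS 135 min, 605 were called higher and 336 lower, against 0 and 0 with the block (2668 at an unadjusted p under 0.05, edgeR), where Nucb1 was not called, 1438 and 1204 with the GC offset and 1829 and 1414 in the shared fit. Log2 fold changes that turned in sign with the GC offset were Itpr1 0.074, Itpr3 -0.24, Orai1 -0.13 and Rcn1 0.067 (HS 45 min against reference), Atp2a2 0.055 (HS 135 min against reference), Rcn3 -0.0096 (Tu 45 min against reference), Itpr1 0.012, Itpr3 -0.17 and Orai1 -0.060 (Tu 135 min against reference), Itpr2 0.033 (HS 135 min against Tu 135 min). Log2 fold changes that turned in sign with limma on RPKM were Nucb2 -0.020 (HS 45 min against reference), Itpr2 -0.063 (HS 135 min against reference), Atp2a2 0.012, Itpr1 0.068, Itpr3 0.048 and Orai1 0.048 (Tu 45 min against reference), Itpr3 -0.025 (Tu 135 min against reference), Nucb2 -0.13, Rcn1 -0.028 and Calu -0.31 (HS 135 min against Tu 135 min). Log2 fold changes that turned in sign with the replicate block were Nucb2 -0.015 and Calu -0.18 (HS 135 min against Tu 135 min). Log2 fold changes that turned in sign with the block and the GC offset were Itpr1 0.075, Itpr2 0.0056, Itpr3 -0.24, Orai1 -0.13 and Rcn1 0.11 (HS 45 min against reference), Rcn1 0.021 (HS 135 min against reference), Rcn3 -0.0080 (Tu 45 min against reference), Itpr1 0.013, Itpr3 -0.17 and Orai1 -0.060 (Tu 135 min against reference), Itpr2 0.038 and Calu -0.027 (HS 135 min against Tu 135 min). Log2 fold changes that turned in sign with the shared fit were Itpr2 0.0072 (HS 135 min against Tu 135 min). Log2 fold changes that turned in sign with total counts were Nucb2 -0.071 (HS 45 min against reference), Itpr2 -0.019 (HS 135 min against reference), Atp2a2 0.044, Itpr1 0.10, Itpr3 0.067 and Orai1 0.073 (Tu 45 min against reference), Nucb2 -0.11 and Rcn1 -0.052 (HS 135 min against Tu 135 min). With single samples left out, the lowest and highest values of those that turned were Nucb2 -0.18 to 0.29 (HS 45 min against reference), Atp2a2 -0.45 to 0.29, Itpr2 -0.00090 to 0.27, Itpr3 -0.20 to 0.10, Nucb2 -0.054 to 0.44 and Calu -1.02 to 0.12 (HS 135 min against reference), Itpr1 -0.030 to 0.025, Itpr3 -0.15 to 0.15, Orai1 -0.11 to 0.085, Nucb2 -0.016 to 0.46, Rcn1 -0.19 to 0.21 and Rcn3 -0.060 to 0.16 (Tu 45 min against reference), Itpr1 -0.054 to 0.019, Itpr3 -0.13 to 0.22, Orai1 -0.019 to 0.30 and Nucb2 -0.10 to 0.37 (Tu 135 min against reference), Rcn1 -0.032 to 0.34 (Tu 405 min against reference), Calu -0.054 to 0.50 (Tu 405 min against Tu 135 min), Atp2a2 -0.17 to 0.59, Itpr2 -0.16 to 0.087, Itpr3 -0.23 to 0.032, Nucb2 -0.17 to 0.27, Rcn1 -0.081 to 0.24 and Calu -0.53 to 0.65 (HS 135 min against Tu 135 min). Counts of members over these fits were 0 to 3 higher and 0 to 2 lower at HS 45 min (3 and 2 without HS 45 min replicate 3), 0 to 2 higher at HS 135 min (2 without HS 135 min replicate 1), 0 to 1 higher at Tu 45 min (1 without reference replicate 1), and 3 to 6 higher and 2 to 3 lower at Tu 405 min (6 and 3 without reference replicate 1). The causes were not tested. The lowest count of a member was 301 reads, against a floor of 3 that covers counting error only.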
